A study of Rattus norvegicus with 20 samples.

Results

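Potassium channel subunit genes were examined in the medial prefrontal cortex (mPFC) of rats after chronic LSD or saline. Members were all genes whose symbol begins with Kcn and that reached 5 reads in 10 or more of the 20 rats, a rule that uses abundance and not the contrast between the groups. Of 94 such symbols, 86 passed, among 16605 genes that passed the same filter. *Kcna10*, *Kcne1*, *Kcne3*, *Kcnj1*, *Kcnk6*, *Kcnk18*, *Kcnmb3* and *Kcnu1* did not. The nearest to the limit were *Kcnk16*, with 5 reads or more in 12 rats, and *Kcnk6*, with that many in 2. By class, 39 genes encode pore-forming subunits of voltage-gated (Kv) channels. Another 11, called Kv auxiliary here, encode auxiliary subunits of Kv channels or, for *Kcnrg*, a regulator of them. Inward rectifiers (Kir, *Kcnj*) account for 14 genes and tandem-pore channels (K2P, *Kcnk*) for 12. The remaining genes are 8 of calcium-activated channels (*Kcnm* and *Kcnn*) and 2, *Kcnt1* and *Kcnt2*, that encode sodium-activated Slo2 channels.

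All animals were male Sprague-Dawley rats, 6 to 8 weeks old and weighing 180 to 200 g when treatment began, according to the labels. The 10 LSD rats received intraperitoneal LSD at 0.16 mg/kg every second day over 90 days, the 10 saline rats received sterile saline on the same schedule, and the labels place tissue collection 3 weeks after the last treatment. The study's methods give a longer interval and an older starting age, for both groups alike. Each rat gave 1 library of poly(A)-selected RNA from the whole mPFC, so that all cell types of the tissue contribute.

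Potassium channels set the resting potential of neurons and glia, repolarise the membrane after a spike and limit repetitive firing. Kv channels open on depolarisation, Kir and K2P channels carry current near rest, and calcium-activated channels couple calcium entry to the afterpotential that follows a spike. A Kv or Kir channel is a tetramer of pore subunits, often of mixed composition within a family, and auxiliary subunits change its gating and its delivery to the membrane.

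Promoter sequences are shown for the genes of the smallest p-value in each direction that had an entry in the RefSeq table for build GRCr8, namely the Kv4 genes *Kcnd2* and *Kcnd3*, which were both higher in LSD rats, and *Kcnj8*, which was lower. Each line gives the 120 bases before the listed transcription start, read 5′ to 3′ on the strand of the gene, and capitals mark a GC box (GGGCGG, or CCGCCC on the other strand).
Kcnd2, chr4:50742365-50742484, plus strand: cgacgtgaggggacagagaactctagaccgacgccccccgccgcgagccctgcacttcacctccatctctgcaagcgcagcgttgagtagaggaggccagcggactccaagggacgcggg
Kcnd3, chr2:195626196-195626315, plus strand: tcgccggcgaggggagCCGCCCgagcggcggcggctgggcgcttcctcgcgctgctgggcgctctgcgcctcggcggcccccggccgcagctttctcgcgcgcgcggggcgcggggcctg
Kcnj8, chr4:177246549-177246668, minus strand: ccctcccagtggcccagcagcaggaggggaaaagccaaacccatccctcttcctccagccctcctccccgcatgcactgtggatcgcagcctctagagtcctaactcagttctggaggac
The GC box is the only motif capitalised, and of these 3 windows only that of *Kcnd3* held one. Of the 86 members, 57 had an entry, and in the 250 bases before the start 50.9% of them held a GC box on either strand, beside 32.4% of 27457 promoters. An E-box (CACGTG) was present in 3.51% of member promoters and 5.79% of all, the letters TATAAA in 1.75% and 13.1%, and a full CRE (TGACGTCA) in 0 of 57 and 1.70%. Member promoters had a median of 13 CpG sites and 62.8% GC, beside 6 and 52.0% for all promoters. Of the 12 members past the threshold below that had an entry, 7 held a GC box in these 250 bases. *Kcnd3* and *Kcnj8* were among these, and *Kcnd2* was not.

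Levels are given as normalised RPM, the reads of a gene per 1e6 reads of its library after TMM scaling, a correction for differences in library composition. They are not divided by transcript length, so levels are compared between rats for 1 gene and not between genes. The libraries held 11098076 to 25552681 reads on genes, and the members took 0.473% to 0.590% of them. Fold changes are log2 values of LSD against saline from edgeR's quasi-likelihood test, each given with its standard error, and p-values were adjusted over all 16605 genes by the Benjamini-Hochberg method, with a threshold of 0.05.

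At this threshold 12 potassium channel genes (14.0%) were higher in LSD rats and 4 (4.65%) were lower. Over all genes tested, 6.48% were higher and 8.54% lower. The median log2 fold change of the members was 0.03, beside 0.00 for all genes, but its sign was negative under 4 alternatives and without LSD rat 2 (-0.026 with the span offsets described below), and 46 members had a positive and 40 a negative estimate. DESeq2 called 13 higher and 4 lower, beside 8.18% and 10.5% of all genes. Scaling by total counts in place of TMM gave 16 higher and 2 lower members, beside 9.06% and 5.17% of all genes. The 12 higher genes were *Kcnq3*, *Kcnq5*, *Kcnd2*, *Kcnd3*, *Kcna2*, *Kcna4*, *Kcnb2*, *Kcnh5* and *Kcnh7* among Kv pore subunits, the Kir gene *Kcnj3*, the BK channel gene *Kcnma1* and the Slo2 gene *Kcnt2*. The 4 lower genes were *Kcna5*, *Kcnj8*, *Kcnk1* and *Kcnk2*. In bulk tissue, fewer cells of a type and less RNA per cell cannot be told apart, which holds for each of these differences.

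**Figure D1:**
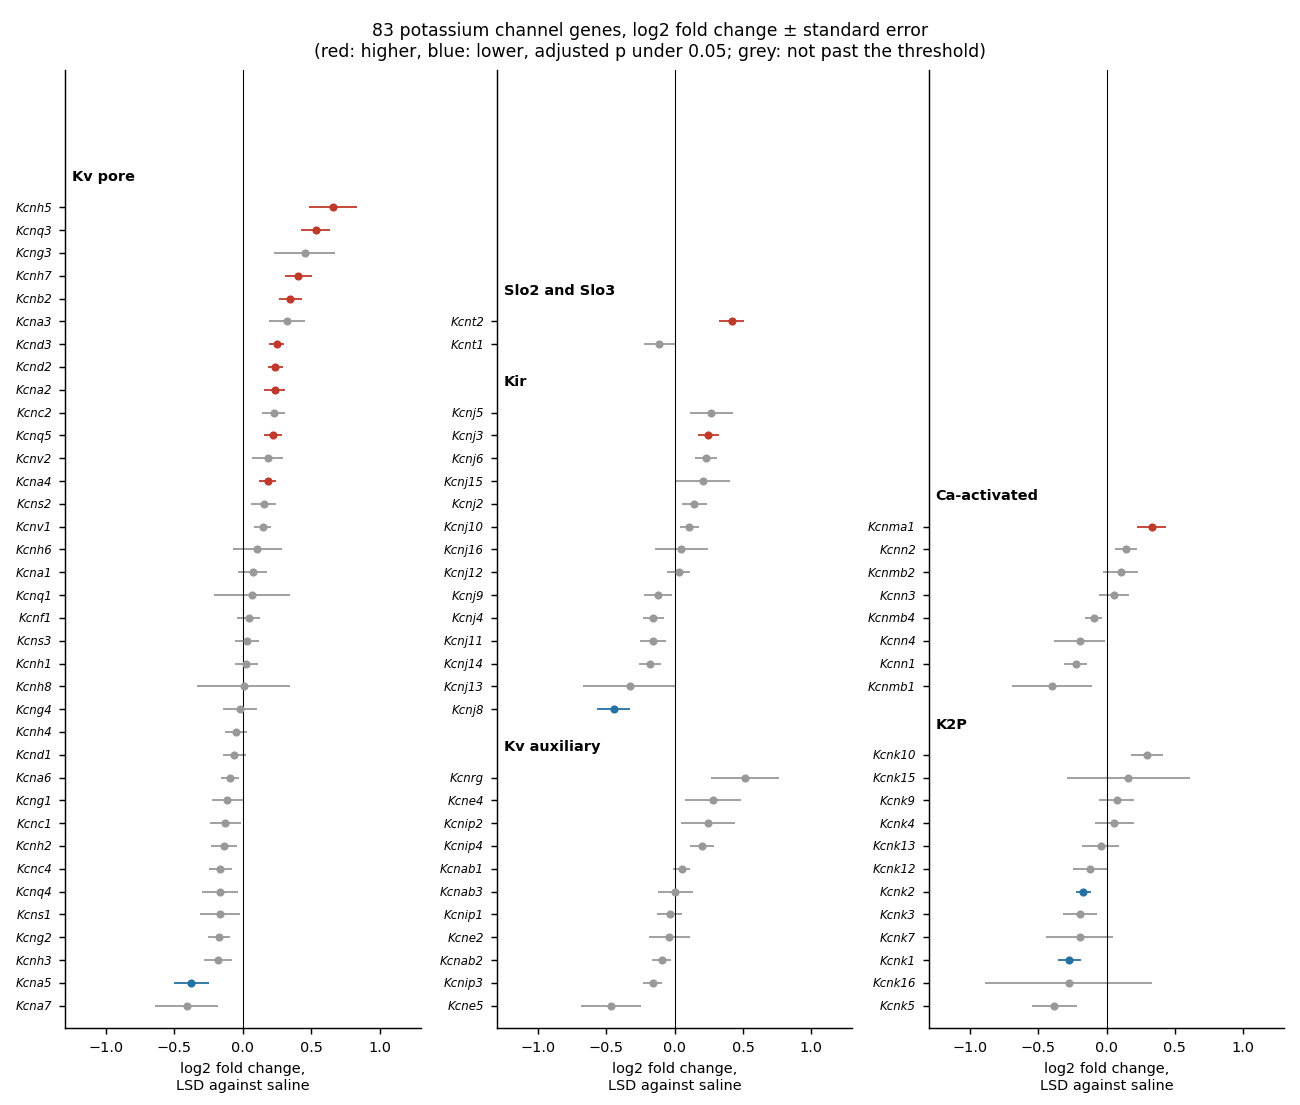
Log2 fold change (x axis, LSD against saline) with its standard error for 83 of the genes, ordered by value within each class; red marks the 12 genes higher and blue the 4 genes lower at an adjusted p under 0.05. Of the 39 Kv pore genes tested, the largest class, 9 were higher. None of the 12 K2P or 11 Kv auxiliary genes was, beside 6.48% higher over all genes tested.

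Kv7 channels carry the M-current, a slow non-inactivating current that muscarinic receptors close. *Kcnq3* ranged from 26.8 to 58.6 normalised RPM in saline rats, with a median of 51.0, and from 54.6 to 80.1 in LSD rats, with a median of 70.7. The groups overlapped slightly, with 9 of 10 LSD rats above the highest saline rat. The log2 fold change was 0.53 ± 0.11 (SE), with an adjusted p of 0.00623 by edgeR, the smallest of all members. *Kcnq5*, whose product also contributes to the M-current, had a median of 84.3 (70.7 to 98.0) in saline rats and 101.0 (81.9 to 114) in LSD rats, with 7 LSD rats above every saline rat. Its log2 fold change was 0.22 ± 0.067 (adjusted p = 0.0298 by edgeR).

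Kv4 channels carry the transient A-type current of dendrites. *Kcnd2* ranged from 53.5 to 76.1 normalised RPM in saline rats (median 65.7) and from 70.5 to 83.8 in LSD rats (median 78.6). *Kcnd3* ranged from 56.6 to 80.0 in saline rats (median 66.7) and from 67.4 to 86.2 in LSD rats (median 80.9). For both genes every LSD rat lay above the saline median, while the groups overlapped. The log2 fold changes were nearly the same, 0.24 ± 0.052 for *Kcnd2* (adjusted p = 0.00757 by edgeR) and 0.25 ± 0.055 for *Kcnd3* (adjusted p = 0.00801 by edgeR). These are the genes whose promoters are printed above.

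Kv1 channels act at the axon initial segment, along axons and at terminals, where they limit spike number and transmitter release. *Kcna2*, the member of this family with the most reads, ranged from 151 to 255 normalised RPM in saline rats (median 214) and from 221 to 290 in LSD rats (median 242), with 3 LSD rats above every saline rat. Its log2 fold change was 0.23 ± 0.079 (adjusted p = 0.0483 by edgeR). *Kcna4*, which encodes a rapidly inactivating subunit, ranged from 14.6 to 20.8 in saline rats (median 18.8) and from 19.5 to 22.6 in LSD rats (median 21.0). All 10 LSD rats exceeded the saline median, and the log2 fold change was 0.18 ± 0.059 (adjusted p = 0.0402 by edgeR). *Kcna5*, also known from vascular smooth muscle, went the other way, from a saline median of 8.75 (5.51 to 12.8) to an LSD median of 6.40 (5.45 to 8.86). Only 1 LSD rat lay above the saline median, and the log2 fold change was -0.37 ± 0.13 (adjusted p = 0.0483 by edgeR). *Kcna1* had medians of 35.0 and 35.1 in saline and LSD rats (adjusted p = 0.685 by edgeR).

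*Kcnb2*, a Kv2 delayed rectifier subunit, ranged from 12.2 to 20.7 normalised RPM in saline rats (median 17.5) and from 18.8 to 25.1 in LSD rats (median 21.7). Every LSD rat lay above the saline median, and the log2 fold change was 0.35 ± 0.083 (adjusted p = 0.0100 by edgeR). Among the EAG, ERG and ELK genes, *Kcnh7*, an ERG channel gene, had a median of 65.4 (41.7 to 81.6) in saline rats and 83.2 (69.7 to 99.0) in LSD rats. The groups overlapped, with 5 LSD rats above every saline rat, and the log2 fold change was 0.41 ± 0.099 (adjusted p = 0.0111 by edgeR). *Kcnh7* overlaps another tested gene, *Gca*, and the strand setting of the counting is not given in the sources used here. *Kcnh5*, an EAG channel gene, had the highest estimate of all members: its median was 8.09 (2.62 to 10.5) in saline and 13.0 (8.01 to 15.5) in LSD rats, with 8 LSD rats above every saline rat. Its log2 fold change was 0.66 ± 0.17 (adjusted p = 0.0161 by edgeR). *Kcnh3*, which had the most reads in that family, did not pass (log2 fold change -0.18 ± 0.099, adjusted p = 0.226 by edgeR).

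None of the 4 Kv3 genes, whose channels allow fast firing, passed the test, beside 6.48% higher and 8.54% lower over all genes tested. The estimate for *Kcnc2* was a log2 fold change of 0.23 ± 0.083 (adjusted p = 0.0656 by edgeR), and that for *Kcnc1* was -0.13 ± 0.11 (adjusted p = 0.486). The 10 silent Kv genes, whose products form channels only with Kv2 subunits, also gave 0 calls by edgeR, with 2 at an unadjusted p under 0.05, and 0 by DESeq2. Among them, *Kcnv1* was called higher with scaling by total counts and with the span offsets described below. *Kcnf1*, the silent gene with the most reads, had a log2 estimate of 0.05 ± 0.084.

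Of the 11 Kv auxiliary genes, 0 passed in edgeR and 0 in DESeq2, with 3 at an unadjusted p under 0.05. Over all genes tested, edgeR called 6.48% higher and 8.54% lower, and DESeq2 8.18% and 10.5%. *Kcnip4*, a KChIP gene whose product binds Kv4 channels, gave 0.20 ± 0.085 on the log2 scale (adjusted p = 0.109 by edgeR), and *Kcnip3*, the KChIP gene with the most reads, gave -0.16 ± 0.070 (adjusted p = 0.118). The Kv beta gene *Kcnab2*, which assembles with Kv1 channels, had medians of 417 in saline and 407 in LSD rats (adjusted p = 0.396). The log2 estimates for *Kcne5* (-0.47 ± 0.22, adjusted p = 0.150) and for *Kcnrg*, a regulator of Kv channels (0.51 ± 0.25, adjusted p = 0.163) did not pass, and both genes had group medians of 3.95 or less in normalised RPM.

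Among the 14 Kir genes 1 was higher and 1 lower, beside 6.48% and 8.54% of all genes tested. *Kcnj3* encodes GIRK1, a subunit of the G protein-gated channels that open on GABA-B, serotonin and other receptor signals. It ranged from 27.5 to 49.1 normalised RPM in saline rats (median 43.5) and from 43.0 to 56.2 in LSD rats (median 50.7), and 9 of 10 LSD rats lay above the saline median. The log2 fold change was 0.25 ± 0.076 (adjusted p = 0.0323 by edgeR). *Kcnj6*, encoding GIRK2, had medians of 100.02 and 116 and did not pass in edgeR (0.23 ± 0.081, adjusted p = 0.0566) but did in DESeq2 (adjusted p = 0.0430), and *Kcnj9*, encoding GIRK3, had a log2 estimate of -0.12 ± 0.10 (adjusted p = 0.462). *Kcnj8* encodes Kir6.1, the pore of vascular ATP-sensitive channels. It had a median of 5.72 (4.15 to 8.55) in saline rats and 4.30 (3.07 to 5.24) in LSD rats, and no LSD rat exceeded the saline median. The log2 fold change was -0.45 ± 0.12 (adjusted p = 0.0188 by edgeR). The glial genes *Kcnj10* (0.11 ± 0.072) and *Kcnj16* (0.05 ± 0.19) did not pass, nor did *Kcnj4* (-0.15 ± 0.074), the Kir gene with the most reads.

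K2P channels carry background current. Of the 12 genes, 0 were higher and 2 were lower, beside 6.48% and 8.54% of all genes tested. The class had a median log2 fold change of -0.14. *Kcnk1*, encoding TWIK-1, had a median of 150 (116 to 173) in saline rats and 116 (99.9 to 158) in LSD rats, and 9 LSD rats lay below the saline median. Its log2 fold change was -0.27 ± 0.084 (adjusted p = 0.0314 by edgeR). *Kcnk2*, encoding the mechanosensitive channel TREK-1, had a median of 59.2 (51.8 to 69.7) in saline rats and 54.6 (48.2 to 58.0) in LSD rats, all 10 of them below the saline median. Its log2 fold change was -0.17 ± 0.056 (adjusted p = 0.0422 by edgeR).

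Of the 8 calcium-activated channel genes 1 passed the threshold, beside 6.48% higher and 8.54% lower over all genes tested. It was *Kcnma1*, which encodes the pore subunit of the large-conductance BK channel. It ranged from 39.8 to 83.8 normalised RPM in saline rats (median 76.0) and from 69.7 to 113 in LSD rats (median 90.8). LSD rats lay both above and within the saline range, with 7 above it, and the log2 fold change was 0.33 ± 0.11 (adjusted p = 0.0404 by edgeR). *Kcnmb4*, the neuronal BK beta subunit, had a log2 estimate of -0.09 ± 0.064 (adjusted p = 0.337). The small-conductance genes *Kcnn1* (-0.22 ± 0.085, adjusted p = 0.0747), *Kcnn2* (0.14 ± 0.079) and *Kcnn3* (0.05 ± 0.11) did not pass. Of the Slo2 genes, *Kcnt2* had a median of 16.1 (10.7 to 19.2) in saline and 20.7 (16.8 to 24.4) in LSD rats, with 7 LSD rats above every saline rat. Its log2 fold change was 0.42 ± 0.094 (adjusted p = 0.00852 by edgeR), whereas *Kcnt1* had -0.11 ± 0.11 (adjusted p = 0.552).

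**Figure D2:**
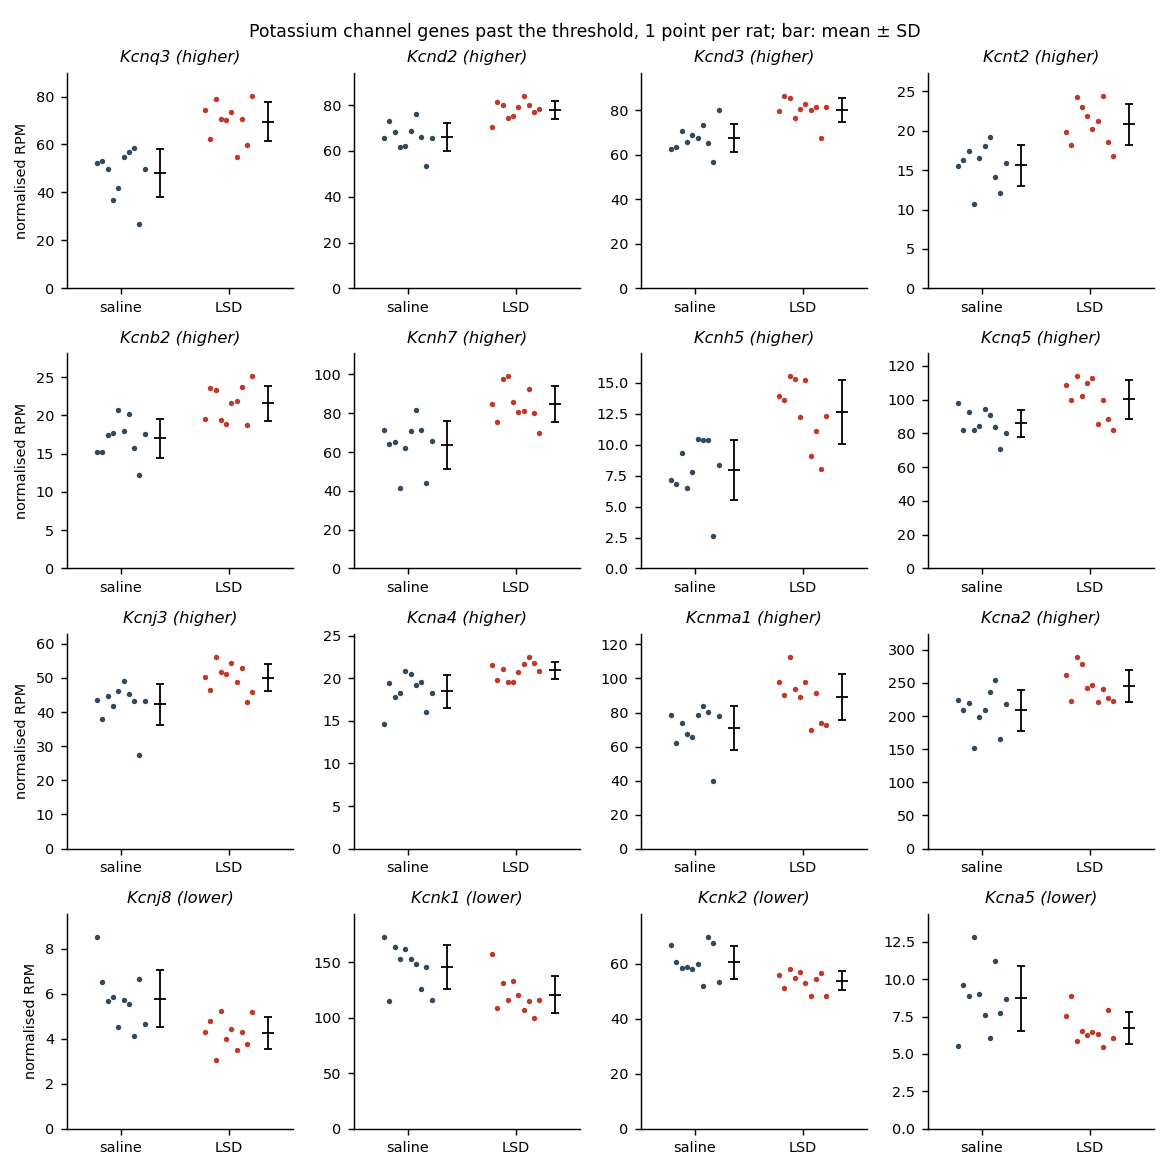
Normalised RPM (y axis, from 0) of the 16 genes past the threshold, 1 point per rat, with the mean ± SD of each group beside the points. For every gene the groups overlap, and saline rat 9 is the lowest saline point for 8 of the 12 higher genes (*Kcnq3*, *Kcnq5*, *Kcnd2*, *Kcnd3*, *Kcnb2*, *Kcnh5*, *Kcnj3* and *Kcnma1*).

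The groups overlapped for every one of the 16 genes, and among all genes tested 0.193% did not overlap. Each gene kept its sign in all alternatives. When each rat was left out in turn, 8 genes passed in all 20 fits (*Kcnq3*, *Kcnd2*, *Kcnd3*, *Kcnt2*, *Kcnb2*, *Kcnh7*, *Kcnh5* and *Kcnj8*). The others passed in 15 fits (*Kcnj3*), 14 (*Kcnq5*), 11 (*Kcna4*), 10 (*Kcnk1*), 8 (*Kcnma1*), 7 (*Kcnk2*), 6 (*Kcna5*) and 5 (*Kcna2*). With reads drawn to equal depth 9 members were higher and 3 lower, and *Kcna2*, *Kcna4*, *Kcnma1* and *Kcnk2* no longer passed. The share of all genes called at equal depth is not given here.

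Ratios of 2 subunits within a rat do not depend on the scaling of the library. For 12 pairs the mean log2 ratio was compared by an exact two-sided permutation test that ran through all 184756 ways to split the rats, adjusted for the 12 pairs. Of the 10 given here, 4 differed. *Kcnc2* over *Kcnc1* was higher by 0.35 (exact permutation test, adjusted p = 0.0045), with medians of 0.732 and 0.967, although neither gene passed on its own.

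The other 3 differing ratios were lower in LSD rats. Their denominators, *Kcna2*, *Kcnj3* and *Kcnma1*, were themselves called higher from the same counts, so these ratios are not separate evidence. *Kcnab2* over *Kcna2*, an auxiliary and a pore subunit of Kv1 channels, had medians of 2.04 in saline and 1.63 in LSD rats, a log2 difference of -0.33 (exact permutation test, adjusted p = 0.0067). *Kcnmb4* over *Kcnma1* had medians of 1.45 and 1.10, a difference of -0.43 (exact permutation test, adjusted p = 0.0067). *Kcnj9* over *Kcnj3* had medians of 3.79 and 2.98, a difference of -0.37 (exact permutation test, adjusted p = 0.0067). In these 3 ratios no LSD rat exceeded the saline median. All 4 differences passed with each rat left out in turn.

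The other 6 ratios given did not pass. *Kcnd3* over *Kcnd2* had medians of 1.01 in saline and 1.05 in LSD rats, with a log2 difference of 0.01 (exact permutation test, adjusted p = 0.891), whereas both genes were higher in LSD rats. *Kcna1* over *Kcna2* had a difference of -0.15 (exact permutation test, adjusted p = 0.105). For *Kcnip4* over *Kcnd2*, *Kcnj6* over *Kcnj3*, *Kcnj16* over *Kcnj10* and *Kcnn3* over *Kcnn2* the differences lay between -0.07 and -0.01.

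**Figure D3:**
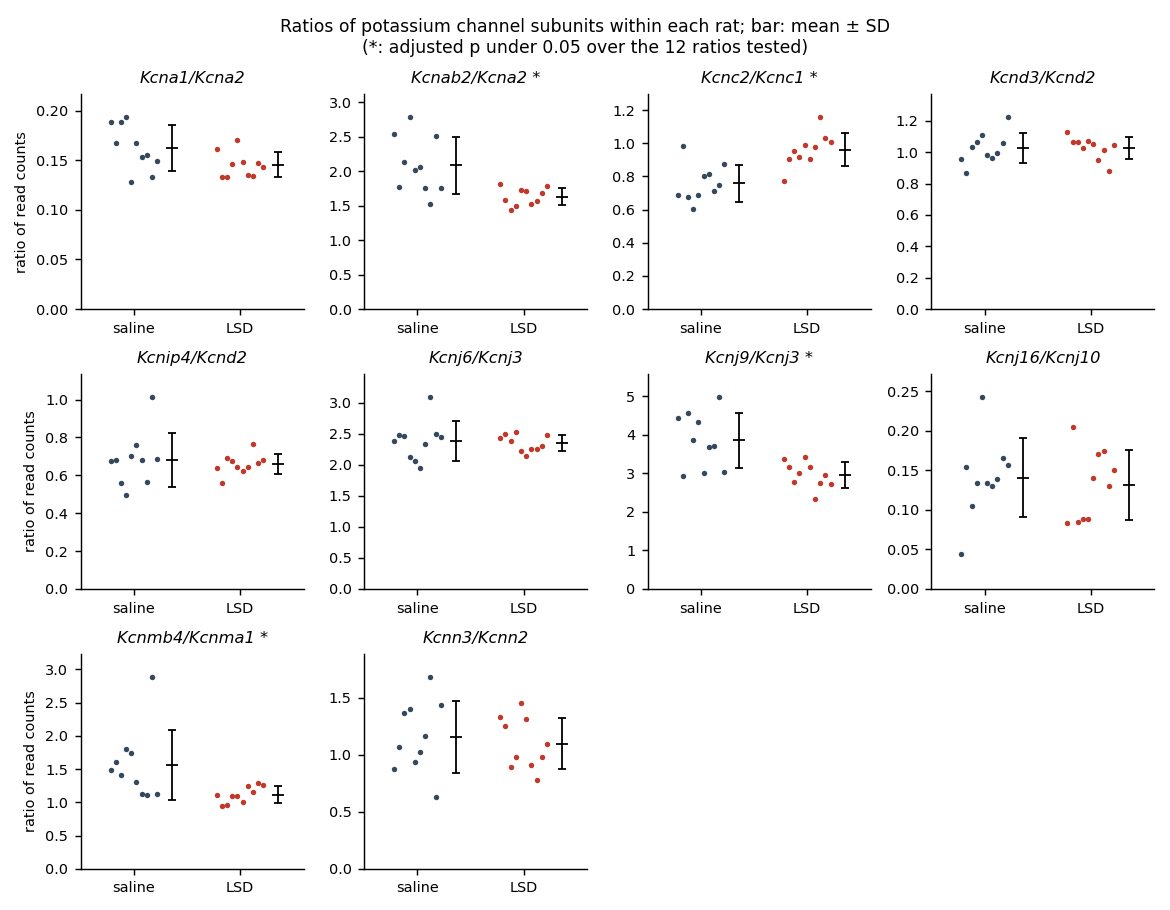
Ratio of the read counts of 2 subunit genes (y axis, from 0) for 10 pairs, 1 point per rat, with the mean ± SD of each group; an asterisk marks the 4 pairs that differed. For *Kcnab2* over *Kcna2*, *Kcnj9* over *Kcnj3* and *Kcnmb4* over *Kcnma1* every LSD rat lies below the saline median, and for *Kcnc2* over *Kcnc1* every LSD rat lies above it.

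The genomic span of a gene, the distance from its start to its end on GRCr8, moved with these differences. Of 24 members that span at least 100 kb, 10 (41.7%) were higher and 1 was lower, beside 17.2% higher and 2.49% lower among all 2287 tested genes of that span. Of 62 shorter members, 2 were higher and 3 lower, beside 4.9% and 10.4% of 12642 shorter genes. Across genes, which are not independent replicates, Spearman's rho between span and log2 fold change was 0.42 over the 86 members and 0.36 over 14929 genes. In each rat, the mean log2 deviation of long genes minus that of shorter genes was 0.018 to 0.082 in LSD rats and -0.273 to 0.031 in saline rats, with saline rat 9 lowest and the next at -0.102.

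With each rat's smoothed deviation by span used as an offset, 9 members were higher and 3 lower. This fit covered only the 14929 genes with a span, of which 3.86% were higher and 7.21% lower. *Kcnq3* (adjusted p = 0.00843), *Kcnt2* (0.0204), *Kcnh7* (0.0232), *Kcnh5* (0.0234), *Kcnd3* (0.0387) and *Kcnb2* (0.0401) still passed in edgeR, as did the shorter genes *Kcna4* (0.0164) and *Kcna2* (0.0398). The other higher member was *Kcnv1*, which had not passed in the main fit. *Kcnk2* (0.0163), *Kcnk1* (0.0244) and *Kcnj8* (0.0472) were still lower. *Kcnd2* (log2 fold change 0.12, adjusted p = 0.0634), *Kcnj3* (0.16, 0.0890), *Kcnma1* (0.22, 0.0947), *Kcna5* (-0.29, 0.129) and *Kcnq5* (0.10, 0.237) no longer passed in edgeR. The log2 difference of *Kcnj9* over *Kcnj3* moved from -0.37 to -0.21 and did not pass (exact permutation test, adjusted p = 0.0697). *Kcnc2* over *Kcnc1* moved from 0.35 to 0.29 and still passed by that test (adjusted p = 0.0144). *Kcnab2* over *Kcna2* (-0.45, adjusted p = 0.0046) and *Kcnmb4* over *Kcnma1* (-0.36, adjusted p = 0.0144) also passed by it. With saline rat 9 left out as well, 7 of the 16 genes passed (*Kcnq3*, *Kcnt2*, *Kcnh7*, *Kcnh5*, *Kcna4*, *Kcnk1* and *Kcnk2*), and *Kcnd3*, *Kcnb2*, *Kcna2* and *Kcnj8* were also lost. What makes long genes differ between the groups was not tested.

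**Figure D4:**
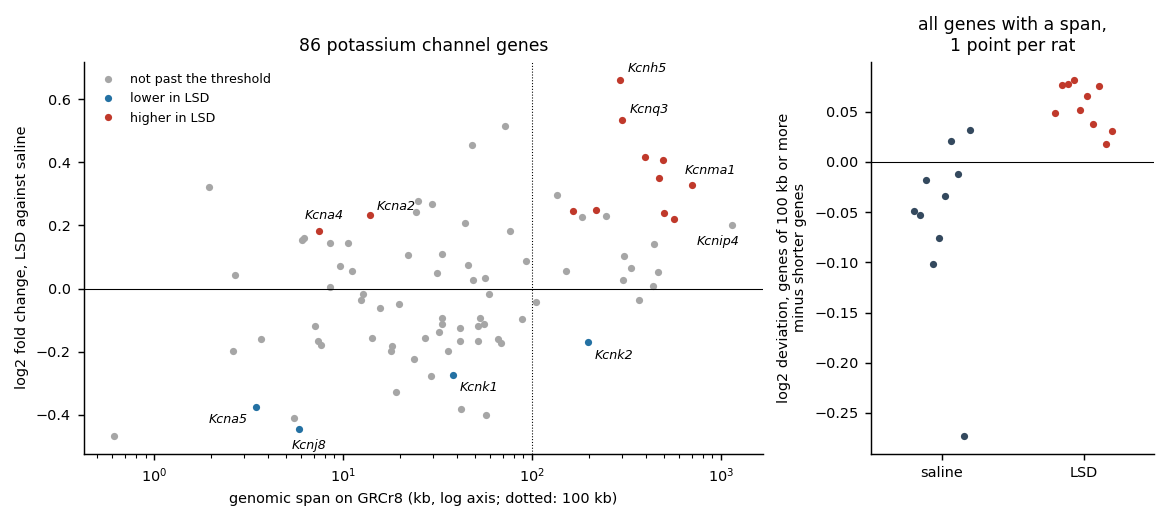
Left, log2 fold change against genomic span in kb (log axis) for the 86 genes, with 10 of the 12 red, higher genes to the right of the dotted line at 100 kb. Right, for each rat, the mean log2 deviation of all genes of at least 100 kb minus that of shorter genes, lowest in saline rat 9 (-0.273).

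Markers of other regions and cell types also varied between rats. The summed level of 7 striatal markers was 606, 777 and 718 normalised RPM in saline rats 2, 8 and 9 and 536 in LSD rat 9, and at most 391 in the remaining 16 rats, and none of the markers passed the test. Without these 4 rats, 12 members were higher and 3 lower, and the share of all genes called in that fit is not given here. Of the 16 genes, 12 still passed, and *Kcna4*, *Kcna5*, *Kcnk2* and *Kcnq5* did not. The 4 ratios still differed, with adjusted p between 0.00420 and 0.0122 by the exact permutation test. Without saline rat 9 and LSD rat 9 alone, 10 of the 16 passed, all higher in LSD rats, and *Kcna2*, *Kcna4*, *Kcna5*, *Kcnj8*, *Kcnk1* and *Kcnk2* did not.

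Beside *Kcnj8* and *Kcna5*, 7 markers of pericytes and smooth muscle summed to 183 to 479 normalised RPM in saline and 164 to 309 in LSD rats, and those of endothelium to 211 to 278 and 198 to 260.8, with 0 of 7 and 0 of 5 tested markers past the threshold in edgeR. Beside *Kcnk1*, *Kcnj10* and *Kcnj16*, astrocyte markers summed to 2020 to 2790 in saline and 2174 to 2886 in LSD rats. Of these 7, *Slc1a2* was higher (log2 fold change 0.41). Oligodendrocyte markers summed to 2388 to 7724 and 2354 to 5979, with 1 of 7, *Cldn11*, lower (-0.46). Precursor markers summed to 210 to 276 and 178 to 241, with 1 of 4, *Sox10*, lower (-0.41). LSD rats above the saline median numbered 8 for astrocyte, 1 for oligodendrocyte and 0 for precursor sums. They numbered 3 for general neuronal, 3 for excitatory, 1 for inhibitory and 8 for parvalbumin sums, and 3 each for endothelium and pericytes with smooth muscle. Of 6 inhibitory neuron markers, *Gad2* (0.23) and *Vip* (0.27) were higher and *Slc32a1* (-0.34) and *Sst* (-0.28) lower, and of 5 parvalbumin interneuron markers *Erbb4* (0.56) was higher. Of 5 general neuronal markers *Tubb3* (-0.30) was lower, and none of 6 excitatory neuron, 7 microglial or 4 tested choroid plexus markers passed. With each rat left out in turn, *Gad2* passed in 9 of 20 fits and *Vip* in 6, and *Slc32a1*, *Sst* and *Tubb3* in all 20. With span offsets *Vip* (adjusted p = 0.0257 by edgeR) and *Slc32a1* (0.0457) still passed. *Gad2* (0.0869), *Sst* (0.0953) and *Tubb3* (0.0523) did not. The part of cell composition in the channel differences was not tested.

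Of 31 partner genes of the channels tested, 4 were higher and 2 lower, beside 6.48% and 8.54% of all genes tested. Their log2 fold changes had a median of 0.06, while *Lrrc52* did not pass the filter. *Dpp10*, which encodes a Kv4 auxiliary protein, was higher (0.24 ± 0.065, adjusted p = 0.0191 by edgeR), while its relative *Dpp6* had 0.00 ± 0.046. *Adam22*, part of the Lgi1 complex with Kv1 channels, was higher (0.21 ± 0.064, adjusted p = 0.0276), as were *Rgs7bp*, which anchors a regulator of GIRK signalling (0.25 ± 0.069, adjusted p = 0.0214), and *Fmr1*, whose product binds BK and Slo2 channels (0.34 ± 0.094, adjusted p = 0.0215). With span offsets *Fmr1* still passed (0.30, adjusted p = 0.0366), while *Dpp10* (0.11, adjusted p = 0.253), *Adam22* (0.11, adjusted p = 0.147) and *Rgs7bp* (0.17, adjusted p = 0.0953) did not. *Abcc9*, encoding the sulfonylurea receptor that pairs with Kir6.1, had 0.17 ± 0.10 (adjusted p = 0.282).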

How the data were processed

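Poly(A) RNA from the mPFC of 20 rats, 10 given LSD and 10 given saline, was sequenced as 1 library per rat, grouped by the sample labels. The authors deposited raw read counts per gene, made with TrimGalore (trimming), HISAT2 (alignment to rn6) and HTSeq (counting). Versions, annotation and strand setting are not given in the sources used here. The 5 unnamed rows, 25.5% to 29.0% of all reads, were left out. Depth was 11098076 to 25552681 reads on genes, and the spread between rats sets the precision.

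Genes that reached 5 reads in 10 or more rats were tested with edgeR 4.0.16 in R 4.3.3 (TMM, quasi-likelihood, Benjamini-Hochberg), after a check on simulated counts. Standard errors were computed as the absolute log2 fold change over the square root of the test's F statistic. Ratios used log2((reads + 0.5)/(reads + 0.5)) and exact permutation tests by direct enumeration (numpy 2.4.6), adjusted with scipy 1.17.1. Alternatives were DESeq2 1.42.0, other scalings and filters, 1 surrogate variable from sva 3.50.0, reads drawn to equal depth, a replicate block, span offsets and rats left out. Omitting saline 9 and LSD 9, omitting saline 2, 8, 9 and LSD 9, and omitting saline 9 with span offsets were added after seeing the data. Span came from the GRCr8 annotation by symbol (all 86 members, 89.9% of genes tested), and was used as a length only. Promoters are the first entry per symbol of the RefSeq GRCr8 table.

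Named genes are all members past the threshold, the gene with the most reads in each family, both genes of each ratio, members that failed the filter, and partner and marker genes past the threshold. Some of these genes, and the ratios that use them, are not reported here, though all entered the fits, counts and adjustments. Other genes named for their channel partners were chosen after their values were seen. Members and lists were chosen with earlier results of these data known.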

Additional observations from a re-analysis of the deposited data

Results flagged for a closer look

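In 116 groups of 10 rats examined, 14 had a single rat set apart from the other 9 by a wide gap (Dixon's test at the 95% level), which chance gives in about 1 of 20 groups. Saline rat 9 was low for *Kcnh5* (2.62 normalised RPM, others 6.52 to 10.5), *Kcnj3* (27.5, others 37.9 to 49.1) and *Kcnma1* (39.8, others 62.2 to 83.8), and high for the ratios of *Kcnip4* to *Kcnd2* (1.01) and *Kcnmb4* to *Kcnma1* (2.89). LSD rat 9 was low for *Kcnd3* (67.4, others 76.6 to 86.2) and high for the striatal marker sum (536, others 264 to 337). LSD rat 10 was high for *Kcnj10* (100.9, others 70.5 to 84.0). Saline rat 4 was high for *Kcne5* (12.5, others 3.08 to 4.66), saline rat 1 for *Kcnab2* (573, others 369 to 470.4) and saline rat 8 for the ratio of *Kcnj6* to *Kcnj3* (3.09). LSD rat 1 was low for *Kcnrg* (0.316). LSD rat 3 was high for the microglial marker sum (481, others 285 to 326), and saline rat 10 for the choroid plexus sum (5.18 normalised RPM).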

How the results depend on the processing

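All 16 genes past the threshold kept their sign under every alternative, but calls were lost: *Kcna2* with median-ratio factors, *Kcna5* and *Kcnk2* with total counts, and *Kcna2*, *Kcna5*, *Kcnk1* and *Kcnk2* with no filter. DESeq2 called 13 members higher and 4 lower. The number of lower members was 2 with scaling by total counts, 1 with no filter on low counts, 7 with span offsets and the replicate block together, 0 without saline 9 and LSD 9 (6 at an unadjusted p under 0.05 in edgeR) and 2 without saline 9 with span offsets, where 5 were higher. Higher partner genes numbered 1 with span offsets, 1 with these and the block, and 0 without saline 9 with span offsets, and lower partner genes 1 with total counts, 1 without a filter, 1 without both rats 9 and 0 without saline 9 with span offsets. The share of all genes called is given only for the main fit, DESeq2, total counts and span offsets, the last over the genes with a span. For the other alternatives a change in member counts cannot be set beside it. The causes were not tested.

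With each rat left out in turn, 7 to 13 members were higher (7 without LSD 3, LSD 6 or saline 4), 1 to 5 were lower (1 without LSD 4, 7, 8 or 10 or saline 3, 4 or 5), 3 to 5 partners were higher and 1 to 2 lower, the members' median was -0.00156 to 0.0463, and 4 to 5 ratios differed. With the replicate number as a block, 14 members were higher and 5 lower, *Kcna4* and *Kcna5* no longer passed, and *Kcna3*, *Kcnc2*, *Kcnj6*, *Kcnj11* and *Kcnn1* passed. *Kcnc2* and *Kcnj6* also passed with total counts and with 1 surrogate variable, and *Kcnn1* with the latter. The numbers were not taken as pairs: same-numbered rats correlated at -0.259 to 0.467 (mean 0.145, beside -0.0157 for other numbers), 6 of 10 pairs were over 0.1, and 1 LSD rat correlated best with its own number.

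The members' median was -0.026 with span offsets, -0.014 with these and the block, -0.011 without the 4 rats with high striatal markers and -0.024 without saline 9 with span offsets. Among single genes and ratios, signs changed only for values not past the threshold. *Kcnf1* was -0.018 without the 4 rats with high striatal markers. *Kcnn3* was -0.028 with span offsets, -0.013 with these and the block, -0.00502 at equal depth and -0.065 without saline 9 with span offsets. The ratio of *Kcnip4* to *Kcnd2* was 0.037 without both rats 9 and 0.023 without the 4 rats, where *Kcnj6* to *Kcnj3* was 0.067 and *Kcnj16* to *Kcnj10* 0.023. With each rat left out, *Kcnj16* ranged from -0.040 to 0.12, *Kcnn3* from -7.7e-05 to 0.12, and the ratios *Kcnd3* to *Kcnd2* from -0.019 to 0.036, *Kcnip4* to *Kcnd2* from -0.075 to 0.039, *Kcnj6* to *Kcnj3* from -0.042 to 0.031, *Kcnj16* to *Kcnj10* from -0.24 to 0.032 and *Kcnn3* to *Kcnn2* from -0.14 to 0.016.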
